A study of Rattus norvegicus with 3 samples.

Results

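Sodium and potassium channel genes were followed in RNA of rat sciatic nerve. The members were all rows of the mRNA gene table with a symbol of an Scn alpha or beta subunit, or a Kcn symbol with a family letter and a number. Of 107 matching rows, 2 Kcna rows were left out by that choice, and the other 105, of 22608 genes in the table, are described: 14 sodium channel genes and 91 potassium channel genes in 20 subfamilies. The symbols also take in potassium channels that voltage does not gate (inward rectifier, 2-pore and calcium- or sodium-activated channels) and accessory subunits, so the set is wider than voltage-gated channels alone.

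The nerves came from male SD (Sprague-Dawley) rats, sampled 30 days after surgery, with 1 library per group. The AKBA library was a nerve crushed with forceps in a rat given AKBA (an acetylated keto-boswellic acid of Boswellia resin), at a dose that the labels do not state. The model library carries the treatment label control and the title letter M, and is taken as the crushed nerve without AKBA. In the sham library the nerve was exposed but not crushed. With 1 library each, no difference has a replicate check, no test between conditions was possible, and the labels do not say how many animals a library held.

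Voltage-gated sodium channels open on depolarisation and carry the rising phase of the action potential. An alpha subunit forms the pore and beta subunits modify its gating and bind adhesion partners. Potassium channels end the action potential and hold the resting potential, and in myelinated axons the sodium and potassium channels are sorted into separate zones in and beside the node of Ranvier. The nuclei that make axonal channel mRNA lie mostly in the dorsal root ganglia and spinal cord, outside the nerve, whereas Schwann cells, vessel walls, fat, immune cells and fibroblasts make their mRNA within it.

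Levels are CPM, counts per 1000000 counts of a library's gene total, which was 90071899 counts in AKBA, 89505656 in model and 74184217 in sham. CPM is not divided by transcript length, so it is compared between libraries and not between genes. A ratio is log2 of (CPM + 1) in the first library over (CPM + 1) in the second, and a gene counted as higher or lower at 2-fold or more if its mean over the libraries was at least 1 CPM. Folds are given as ratios of CPM with exact 95% counting intervals, which cover counting error only. Because of the added 1 CPM, a gene with a CPM fold past 2 can fall short of 2-fold in the log2 ratio. Myelinating Schwann cell markers were high in every library, with a summed level of 37137 CPM in AKBA, 41808 in model and 18190 in sham. Other cell types were unequal between libraries. All 20 skeletal muscle markers were at least 2-fold higher in AKBA than in model, beside 2.69% of all genes past the filter. Their summed level was 7467 CPM in AKBA, 990.2 in model and 488 in sham. The 8 hair follicle markers summed to 132, 3.47 and 4.81 CPM, and the 10 adipocyte markers to 3375, 6799 and 11213 CPM, in AKBA, model and sham. Ribosomal RNA rows took 7.59%, 4.20% and 11.5% of counts in the same order.

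Of the 105 members, 56 passed the level filter. Of the 56, 5 were under 1 CPM in at least 1 library (among them Kcne2, Kcnj11, Kcnq1 and Scn4b). Of these, 1 (Scn4b) reached 1 CPM in AKBA only, and so passed only through the library in which it was high. The counts that follow are therefore a description and not a test. Between model and sham, 7 members (12.5%) were at least 2-fold higher in model, against 4.52% of all 14427 genes past the filter, and 0 were at least 2-fold lower, against 1.31%. Between AKBA and model, 6 members (10.7%) were higher, against 2.69% of all genes, and 3 (5.36%) were lower, against 1.37%. Between AKBA and sham, 10 (17.9%) were higher, against 5.83%, and 5 (8.93%) lower, against 2.08%. In either direction, 4.05% of all genes were past 2-fold between AKBA and model, 7.91% between AKBA and sham and 5.83% between model and sham. The share of members was above that of all genes in each comparison and direction except members lower in model than in sham. With a filter at a mean of 5 CPM this failed for members higher in AKBA than in model, at 0 against 1.74% of all genes. TMM scaling gave 6 higher and 3 lower members (10.7% and 5.36%, against 2.61% and 2.03% of all genes) for model against sham and 7 higher and 6 lower (12.5% and 10.7%, against 4.01% and 3.02% of all genes) for AKBA against sham, so the split by direction depends on the scaling in both. The comparisons share libraries and are not independent.

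**Figure D1:**
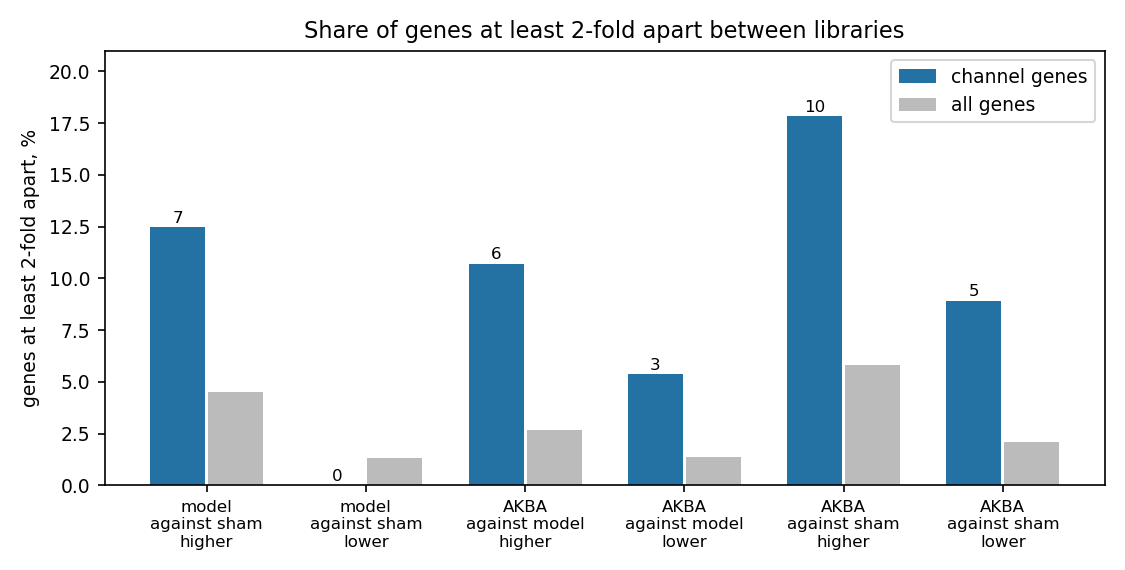
Percent of genes at least 2-fold higher or lower in each pair of libraries, for the 56 channel genes past the level filter (blue, with their number above the bar) and all 14427 genes past it (grey). The blue bar is taller than the grey one in each pair except members lower in model than in sham, where it is at 0.

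The middle of the set lay close to that of all genes. The median log2 ratio of the 56 members was 0.15 for model against sham, beside 0.18 for all genes, -0.11 for AKBA against model, beside -0.04, and 0.26 for AKBA against sham, beside 0.16. TMM scaling moved the median of all genes to -0.02 for model against sham, from 0.18. Single members, 20 of the 56, lay past 2-fold in at least 1 comparison, and the other 36 did not reach 2-fold in any. The share of all genes past 2-fold in at least 1 comparison was not computed. The 20 are therefore a list and not a trait of the set.

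**Figure D2:**
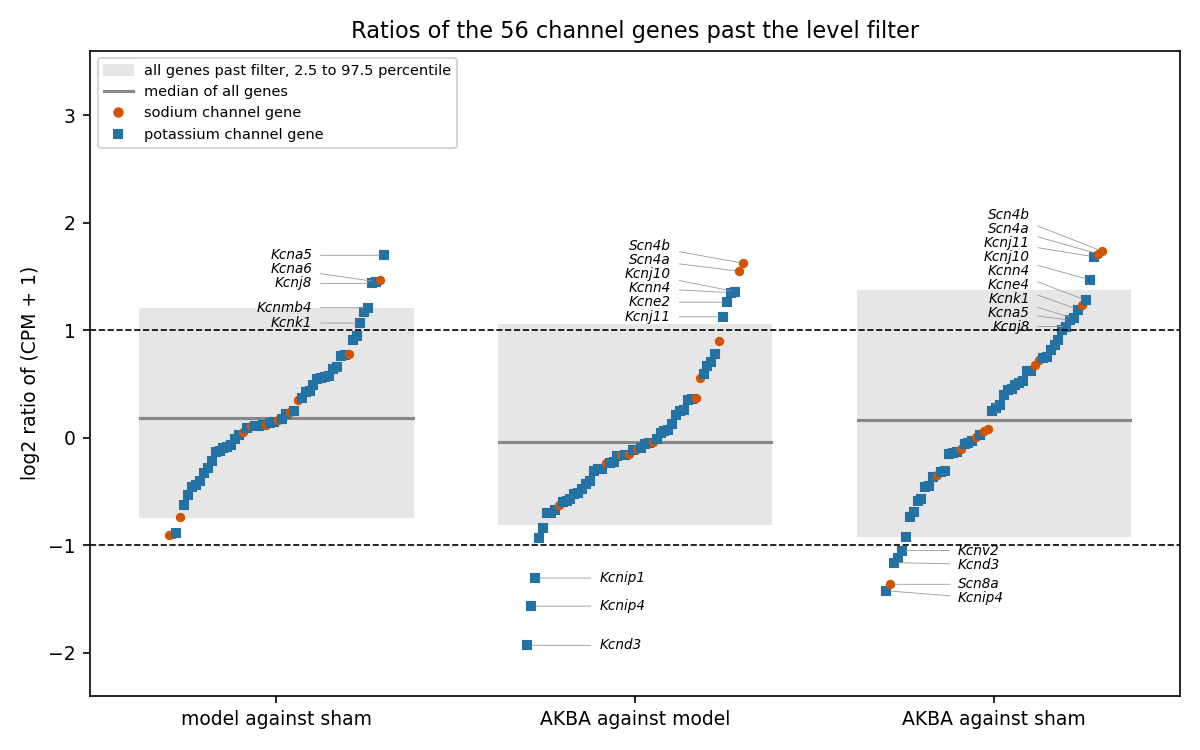
Log2 ratio of (CPM + 1) of each of the 56 channel genes past the level filter, sorted within each comparison (orange circles, sodium channel genes; blue squares, potassium channel genes). The grey band holds 95% of all genes past the filter, the grey line is their median and the dashed lines mark 2-fold; Scn4b (1.62) and Kcnd3 (-1.93) are the extremes for AKBA against model.

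Among the 10 sodium channel alpha subunits, Scn7a dominated the counts. Scn7a encodes NaX, a channel that responds to sodium concentration rather than to voltage and is known from glia, Schwann cells included. It stood at 1225 CPM in AKBA, 947 in model and 744 in sham, and its reads made up 71.2% (95% Wilson interval 70.9 to 71.4), 63.6% (63.3 to 63.8) and 65.0% (64.7 to 65.3) of all reads of the 105 members in those libraries. The order was AKBA, model, sham, but no pair reached 2-fold (AKBA over sham 1.65, 1.63 to 1.66). The summed myelinating Schwann cell markers had another order, with model highest, although 7 of the 12 were highest in AKBA and 4 in model. Of all genes, 36.3% were highest in AKBA and 42.4% in model. In whole nerve, more cells of a type and more RNA per cell cannot be told apart, here or for any member below.

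The alpha subunits of neurons and axons went different ways. Scn8a encodes Nav1.6, the main sodium channel of the mature node of Ranvier, and had 1.70 CPM in AKBA, 3.16 in model and 5.94 in sham. It was lower in AKBA than in sham (0.286 times, 0.236 to 0.344), with model between them and past 2-fold against neither. Scn3a, which encodes Nav1.3, a channel of the embryonic nervous system that injured neurons make again, stood at 24.2 CPM in AKBA, 26.0 in model and 14.8 in sham. Both crushed nerves were above sham for Scn3a, by 1.64 times (1.52 to 1.76) in AKBA and 1.76 times (1.64 to 1.89) in model, short of 2-fold. Scn9a, the Nav1.7 gene of nociceptors and sympathetic neurons, had 12.4, 14.0 and 11.7 CPM in AKBA, model and sham, and Scn2a, a brain subunit, had 5.74, 6.55 and 6.25 CPM. These were nearly level across the libraries.

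The other nociceptor subunits were barely read. Scn10a (Nav1.8) had 16 counts in AKBA, 38 in model and 22 in sham, and Scn11a (Nav1.9) had 9, 7 and 7. Scn1a had 6, 6 and 2 counts. Scn1a, Scn9a and Scn7a follow one another on chromosome 3 of the RefSeq table of assembly GRCr8, with Scn3a and Scn2a next to each other on the same chromosome, so that neighbours of one cluster spanned from a handful of reads to the most read member. The neuron and axon markers, 10 of 10 above the filter, summed to 579 CPM in AKBA, 1169 in model and 906 in sham, most of it from Sncg (507, 1072 and 859 CPM). The other 9, a split made after their values were seen, summed to 71.6, 96.8 and 47.4 CPM. Of the 10, 8 were highest in model and 2, the neurofilament genes Nefl and Nefm, in AKBA, while 5 were lowest in AKBA and 5 in sham. Of all genes past the filter, 42.4% were highest in model and 36.3% in AKBA, and 28.1% were lowest in AKBA and 58.0% in sham.

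Muscle subunits made the largest upward ratios in AKBA. Scn4a encodes Nav1.4, the sodium channel of skeletal muscle fibres, and had 6.47 CPM in AKBA, 1.55 in model and 1.28 in sham. It was 4.17-fold higher in AKBA than in model (3.46 to 5.05), while model and sham had overlapping counting intervals. Of 10 markers of denervated or regenerating muscle, 7 passed the filter. In AKBA 4 of the 7 were above model, 2 of them by at least 2-fold, beside 2.69% of all genes. The 2 were the developmental myosin genes Myh3, with 13.3 CPM in AKBA, 0.458 in model and 0.0539 in sham, and Myh8, with 10.2, 0.279 and 0 CPM. Both passed the filter only through AKBA. The other 3 of the 7, Ncam1 (41.3, 64.9 and 23.0 CPM), Musk (1.54, 1.85 and 1.36 CPM) and Chrna1 (0.988, 1.13 and 1.04 CPM), had lower levels in AKBA than in model. Below the filter, Myog, Chrng and Chrnd had 141, 25 and 15 counts in AKBA and 0 in model and sham.

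The beta subunits, single-pass proteins that join the alpha subunits, also differed from one another. Scn2b (beta 2) was nearly level, at 14.0, 14.4 and 13.3 CPM in AKBA, model and sham. Scn3b (beta 3) had 3.997 CPM in AKBA, 1.68 in model and 3.99 in sham, lowest in model, and with TMM scaling it was counted lower in model than in sham. Scn4b (beta 4), a muscle and neuron subunit, had 4.63 CPM in AKBA, 0.827 in model and 0.687 in sham. It was 5.60-fold higher in AKBA than in model (4.36 to 7.27), close to the fold of Scn4a. Scn4b passed the level filter only through AKBA, the library in which it was high. Scn2b and Scn4b are neighbours on chromosome 8 of that table, and one was level where the other was not.

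**Figure D3:**
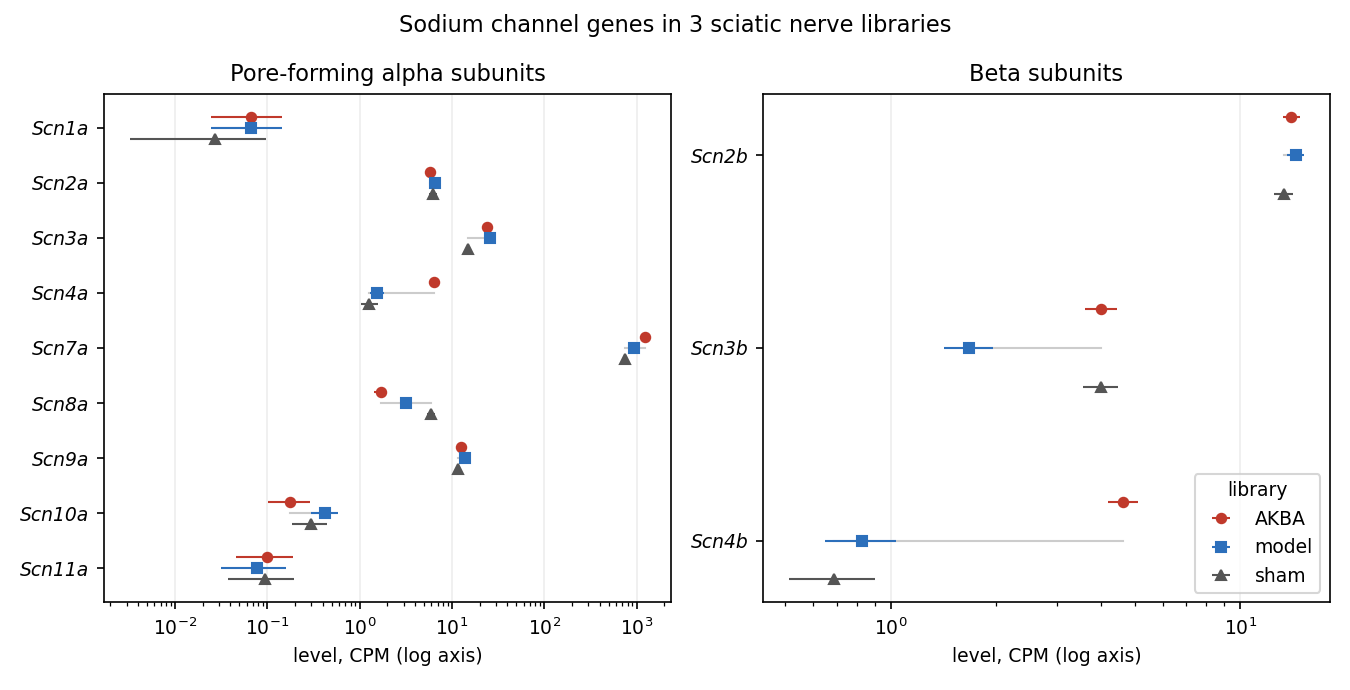
Level in CPM (log axis) of 9 sodium channel alpha subunit genes and 3 beta subunit genes in the AKBA (red circles), model (blue squares) and sham (grey triangles) libraries, 1 library each; bars are exact 95% Poisson counting intervals. Scn7a stands far right in all libraries, and Scn4a and Scn4b are set apart by the AKBA library alone.

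The 250 bases before the annotated start of Scn4a and Scn4b are shown because these were the highest ratios of AKBA to model, beside those of Scn7a, the most read member, and Kcnd3, the lowest ratio. They are RefSeq sequences of assembly GRCr8, 5′ to 3′ on the gene's own strand, with the letters CAGCTG, an E-box that muscle transcription factors of the MyoD family can bind, in capitals. The windows are chr10:91796325-91796574 (minus strand) for Scn4a, chr8:54343623-54343872 (plus) for Scn4b, chr3:71846285-71846534 (minus) for Scn7a and chr2:195626066-195626315 (plus) for Kcnd3.
Scn4a: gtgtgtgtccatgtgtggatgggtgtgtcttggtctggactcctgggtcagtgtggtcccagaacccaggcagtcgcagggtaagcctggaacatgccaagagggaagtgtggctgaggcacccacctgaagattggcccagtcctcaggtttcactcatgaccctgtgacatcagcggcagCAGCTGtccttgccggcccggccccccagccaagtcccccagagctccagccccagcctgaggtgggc
Scn4b: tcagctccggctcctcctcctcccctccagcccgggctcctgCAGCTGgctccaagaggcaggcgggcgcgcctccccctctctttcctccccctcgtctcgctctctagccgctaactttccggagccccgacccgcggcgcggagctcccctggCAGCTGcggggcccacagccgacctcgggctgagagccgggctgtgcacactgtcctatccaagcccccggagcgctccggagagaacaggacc
Scn7a: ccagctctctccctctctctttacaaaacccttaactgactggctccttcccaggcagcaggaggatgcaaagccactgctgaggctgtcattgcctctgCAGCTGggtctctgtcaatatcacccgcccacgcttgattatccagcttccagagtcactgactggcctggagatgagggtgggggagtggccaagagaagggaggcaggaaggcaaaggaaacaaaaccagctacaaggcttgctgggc
Kcnd3: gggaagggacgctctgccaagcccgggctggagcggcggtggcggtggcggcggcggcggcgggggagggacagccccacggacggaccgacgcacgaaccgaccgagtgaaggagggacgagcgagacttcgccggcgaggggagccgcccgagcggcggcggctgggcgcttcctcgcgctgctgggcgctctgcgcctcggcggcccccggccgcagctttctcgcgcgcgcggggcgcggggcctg
CAGCTG, which reads the same on both strands, stood 1 time before Scn4a, with its first letter 68 bases before the start, 2 times before Scn4b, at 208 and 94 bases, and 1 time before Scn7a, at 150 bases. Its letters were not in the Kcnd3 window. Over all windows of this length, 4007 of 33469 (11.97%) held CAGCTG, and so did 20 of the 78 windows of members (25.6%), which belong to 72 of the 105 genes. CAGCTG is 1 form of the wider E-box CANNTG, which 65.5% of all windows and 61.5% of member windows held. Of the members past 2-fold in at least 1 comparison, 12 had a window. CAGCTG stood before 4 of these 12 genes, Kcna5, Kcne4, Scn4a and Scn4b, beside 11 of the 39 past the filter with a window. It was thus not limited to the muscle subunits. Other motifs were also searched. A MEF2-type muscle motif stood before 0 of the 12 and 0 of the 39, beside 3.41% of all windows. A match says that the letters are there and not that a factor binds.

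Of 6 Kv1 genes, whose products are delayed rectifiers and low-threshold channels, the 2 that passed the filter were higher in model than in sham. Kcna5 encodes Kv1.5, a channel described in Schwann cells and in vessel smooth muscle, and had 10.5 CPM in AKBA, 16.4 in model and 4.38 in sham. It was 3.75-fold higher in model than in sham (3.33 to 4.25) and 2.39-fold higher in AKBA than in sham (2.11 to 2.72), and with TMM scaling the second of these ratios was under 2-fold (0.96 on the log2 scale). Kcna6 (Kv1.6) had 2.71 CPM in AKBA, 5.02 in model and 1.20 in sham, and was 4.18-fold higher in model than in sham (3.32 to 5.31). Both genes thus had the order model, AKBA, sham. The 4 other Kv1 genes described were below the filter and had other orders. Kcna7, a skeletal muscle channel gene, had 165 counts in AKBA, 40 in model and 0 in sham. Kcna3, known from T cells, had 89, 23 and 65 counts, and Kcna4 had 31, 4 and 20, both lowest in model.

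The Kv1 beta subunit genes Kcnab1, at 26.4, 24.1 and 21.2 CPM in AKBA, model and sham, and Kcnab2, at 10.8, 10.3 and 7.40 CPM, did not reach 2-fold. Kcnv2, a silent subunit that forms no channel alone and alters the gating of those it joins, was lower in AKBA than in sham (0.401 times, 0.341 to 0.471), at 2.54 CPM in AKBA, 2.96 in model and 6.34 in sham. For Kcnv2 both crushed nerves were below sham. Amigo1, which encodes an adhesion protein that also serves as a potassium channel auxiliary subunit, was at least 2-fold lower in AKBA than in model, at 1.17 CPM in AKBA, 4.61 in model and 2.14 in sham. The silent subunit genes Kcns3 (4.33, 6.18 and 2.74 CPM in AKBA, model and sham) and Kcng2 (1.60, 1.25 and 2.25 CPM) did not reach 2-fold on the log2 scale. The CPM fold of Kcns3 for model over sham was 2.26 (1.92 to 2.67).

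Some genes of the Kv4 complex were low together in the AKBA library. Kv4 channels carry a fast-inactivating current and bind KChIP proteins, encoded by Kcnip genes, which raise their surface number and shape their gating. Kcnd3 (Kv4.3) had 5.62 CPM in AKBA, 24.2 in model and 13.8 in sham. It was 0.232 times as high in AKBA as in model (0.210 to 0.255), the lowest ratio of any member past the filter, and it was also lower in AKBA than in sham. Kcnip1 (KChIP1) had 3.31 CPM in AKBA, 9.65 in model and 6.17 in sham, 0.343 times as high in AKBA as in model (0.299 to 0.391). Kcnip4 (KChIP4) had 2.49 CPM in AKBA, 9.33 in model and 8.36 in sham, 0.267 times as high in AKBA as in model (0.229 to 0.309). In each of Kcnd3, Kcnip1 and Kcnip4, AKBA was lowest and model highest.

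Other genes of the complex past the filter were not 2-fold apart between AKBA and model. Kcnd1 (Kv4.1) stood at 5.17, 4.86 and 5.39 CPM in AKBA, model and sham. Kcnip2 had 1.299, 1.70 and 2.13 CPM, also lowest in AKBA. Kcnip3, also known as the transcription factor DREAM, had 4.15, 5.32 and 2.36 CPM. Below the filter, Kcnd2 (Kv4.2) had 23 counts in AKBA, 7 in model and 0 in sham, highest in AKBA. Dpp6, an auxiliary protein of Kv4 channels, had 6.36 CPM in AKBA, 4.06 in model and 6.12 in sham. With counts summed over the transcripts that could be placed in Kcnip4, its log2 ratio of AKBA to model was -0.71 and no longer past 2-fold. Kcnd3 and Kcnip1 stayed past 2-fold in all 8 alternatives, though those that change only the level filter cannot move a ratio. Of the 10 neuron and axon markers, 8 were below model in AKBA, 3 of them by at least 2-fold, beside 1.37% of all genes. Against sham, 5 of the 10 were above 0 on the log2 scale in AKBA, and without Sncg their sum was lowest in sham. Their part in the ratios of Kcnd3, Kcnip1 and Kcnip4 was not tested.

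**Figure D4:**
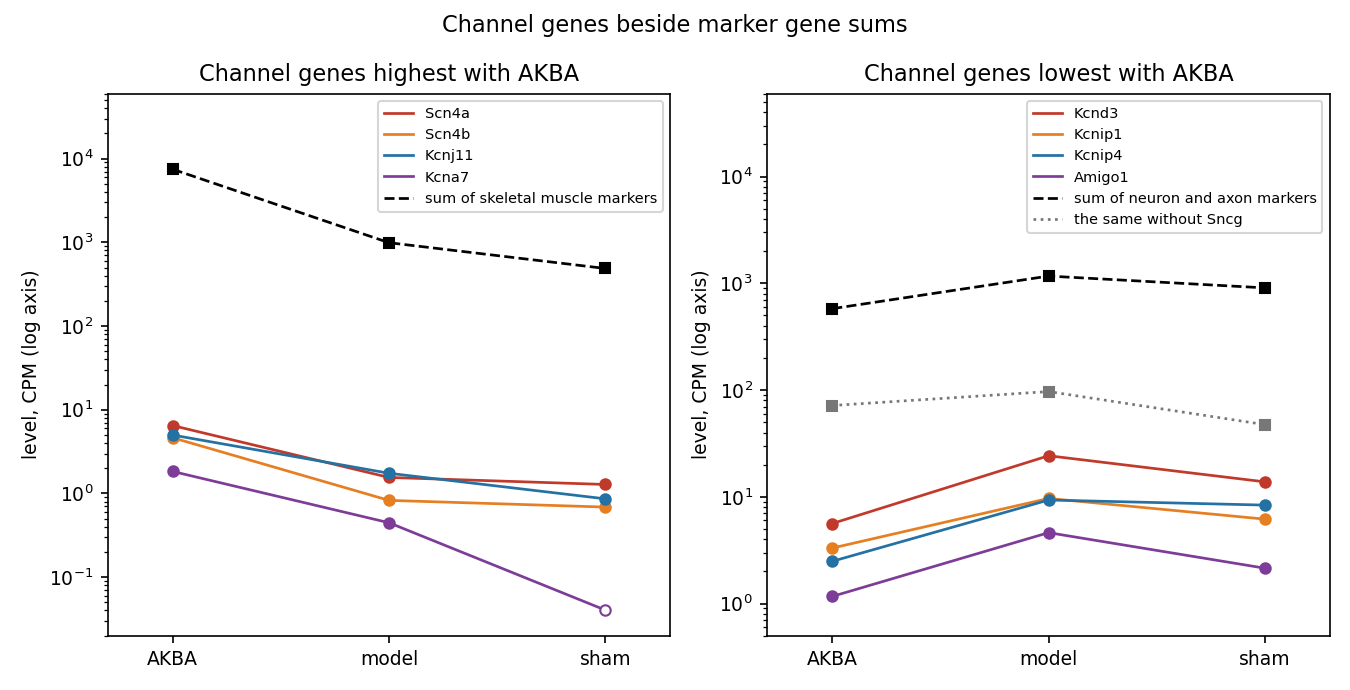
Level in CPM (log axis) in the AKBA, model and sham libraries, 1 library each. Left, Scn4a, Scn4b, Kcnj11 and Kcna7, among the channel genes highest in AKBA, with the sum of 20 skeletal muscle markers (dashed). Right, Kcnd3, Kcnip1, Kcnip4 and Amigo1, lowest in AKBA, with the sum of 10 neuron and axon markers (dashed) and of the 9 without Sncg (dotted). On the right the dashed sum is lowest in AKBA and the dotted one in sham. The open circle is Kcna7 in sham, with 0 counts, drawn at a fixed floor of 3 counts (0.0404 CPM).

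The Kv3 genes, which serve fast firing, were all below the filter. Of these Kcnc4 (Kv3.4), a gene also known from skeletal muscle, had 141 counts in AKBA, 11 in model and 11 in sham, and is singled out after its values were seen. The same holds for Kcnh1, an EAG channel gene known from fusing human myoblasts, with 89, 6 and 16 counts. Both stood apart in AKBA. Of the EAG, ERG and ELK genes past the filter, Kcnh2 (the ERG channel of the heart) had 6.66, 7.97 and 8.51 CPM and Kcnh8 6.46, 6.54 and 3.45 CPM in AKBA, model and sham, neither past 2-fold.

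Kcnq3, a gene of the neuronal M-current, was below the filter, with 9 counts in AKBA, 44 in model and 0 in sham. The KCNE proteins are small accessory subunits of voltage-gated potassium channels. Kcne4 had 27.4 CPM in AKBA, 16.5 in model and 11.4 in sham, 2.40-fold higher in AKBA than in sham (2.22 to 2.60), and Kcne2 had 3.38, 0.827 and 1.48 CPM, 4.08-fold higher in AKBA than in model (3.16 to 5.34). Both calls ended with transcript sums, at log2 ratios of 0.17 and 0.46, because most of their reads were on transcripts that could not be placed.

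**Figure D5:**
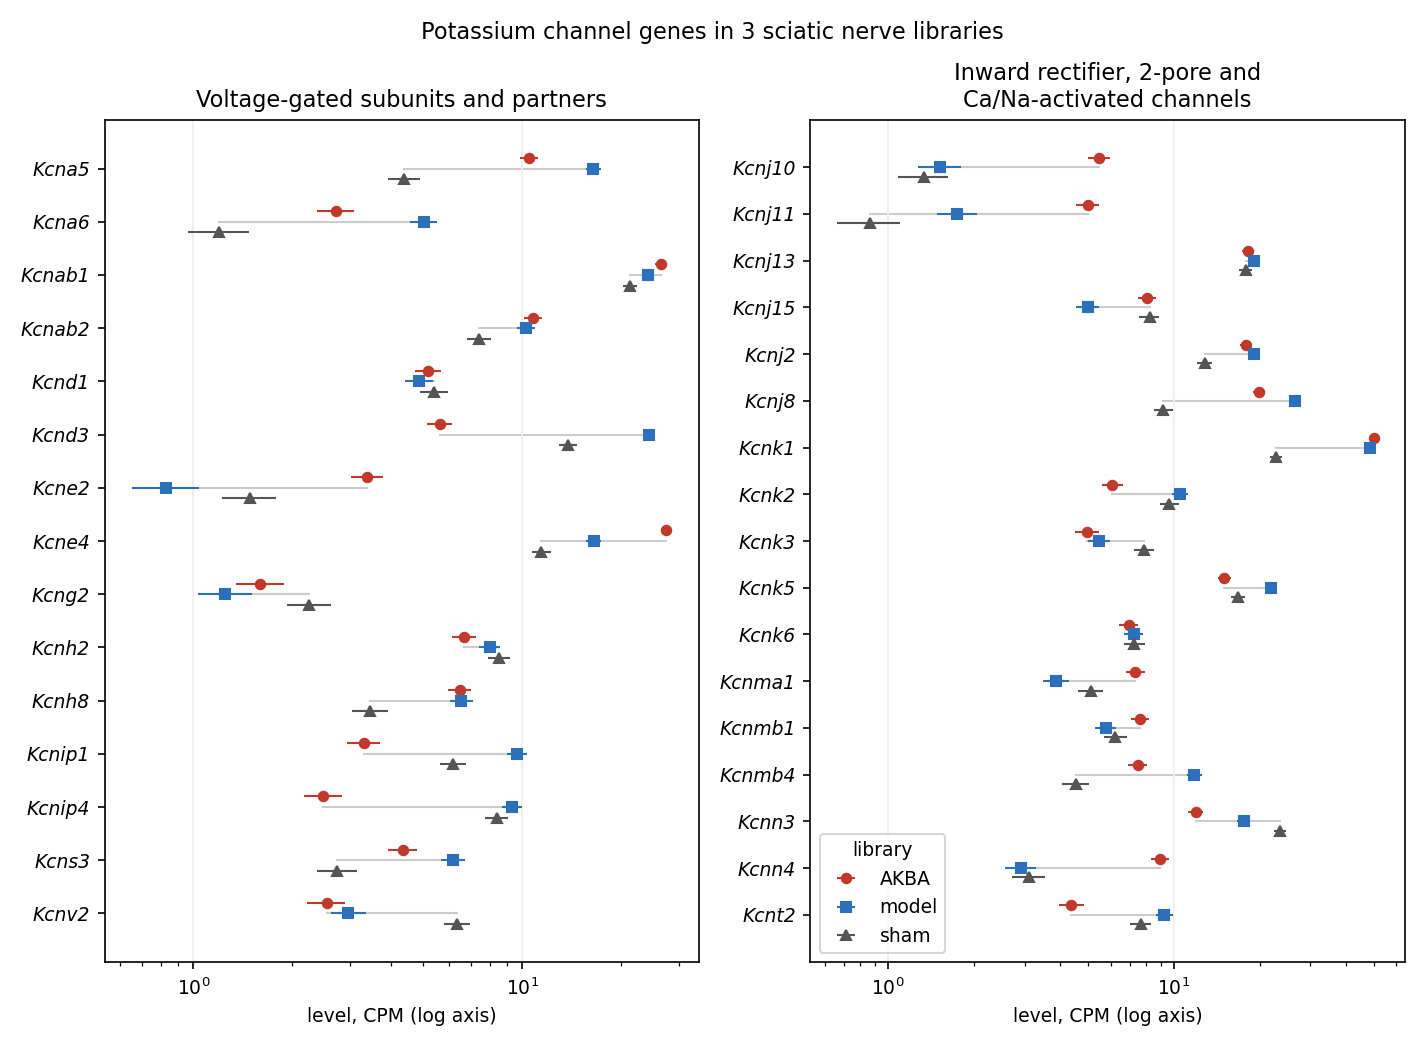
Level in CPM (log axis) of potassium channel genes that met the naming rule, in the AKBA (red circles), model (blue squares) and sham (grey triangles) libraries, 1 library each; bars are exact 95% Poisson counting intervals. AKBA is far left of model for Kcnd3, Kcnip1 and Kcnip4 and far right of it for Kcnj10, Kcnj11, Kcnn4 and Kcne2.

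Inward rectifiers hold the resting potential and pass potassium into glia, muscle and vessel cells. Kcnj8 encodes Kir6.1, the pore of the ATP-sensitive channel of pericytes and smooth muscle, and had 19.9 CPM in AKBA, 26.5 in model and 9.18 in sham. It was 2.89-fold higher in model than in sham (2.65 to 3.15) and 2.16-fold higher in AKBA than in sham (1.98 to 2.37), the second of which was under 2-fold with TMM scaling (0.88 on the log2 scale). Abcc9, which encodes its sulfonylurea receptor partner, had 119 CPM in AKBA, 146 in model and 118 in sham. The summed smooth muscle and pericyte markers stood at 4172, 3178 and 2212 CPM in AKBA, model and sham, another order than that of Kcnj8. Of these 12 markers, Abcc9 among them, 7 were highest in AKBA and 5 in model, beside 36.3% and 42.4% of all genes. In sham 9 were lowest, beside 58.0% of all genes. The part of smooth muscle and pericyte RNA in the ratios of Kcnj8 was not tested.

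Kcnj11 encodes Kir6.2, the pore of the ATP-sensitive channel of skeletal muscle and beta cells, and had 4.98 CPM in AKBA, 1.74 in model and 0.863 in sham. It was 2.86-fold higher in AKBA than in model (2.38 to 3.45). Kcnj12, a Kir2 gene of heart and skeletal muscle, followed the same order, at 5.20, 3.83 and 2.10 CPM. For AKBA against sham it lay just under 2-fold on the log2 scale (0.998), with a CPM fold of 2.47 (2.06 to 2.98). Scn4a, Scn4b, Kcnj11 and Kcna7 were thus highest in the library whose muscle markers were highest. Of the 56 members past the filter, 18 (32.1%) were highest in AKBA, against 36.3% of all genes. The part of muscle RNA in the ratios of Scn4a, Scn4b, Kcnj11 and Kcna7 was not tested.

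Kcnj10 encodes Kir4.1, the channel through which glia take up potassium. It had 5.46 CPM in AKBA, 1.52 in model and 1.33 in sham, 3.59-fold higher in AKBA than in model (2.97 to 4.38), and AKBA stood alone. None of the 12 myelinating Schwann cell markers was 2-fold apart between AKBA and model, beside 4.05% of all genes. The part of glial or other cells in the ratios of Kcnj10 was not tested. Kcnj2 (Kir2.1) had 17.9 CPM in AKBA, 19.1 in model and 12.8 in sham, and Kcnj13 (Kir7.1) had 18.2, 19.0 and 17.8 CPM. Kcnj15 had 8.03, 4.98 and 8.21 CPM. None of these was 2-fold apart. The G protein-gated genes Kcnj3, Kcnj5, Kcnj6 and Kcnj9 were below the filter.

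The 2-pore channels carry leak currents. Kcnk1 (TWIK1) was the most read of them, at 50.1 CPM in AKBA, 48.6 in model and 22.7 in sham. Both crushed nerves were above sham, by 2.21-fold (2.09 to 2.34) in AKBA and 2.14-fold (2.03 to 2.27) in model, and did not differ from each other beyond counting error (1.03, 0.988 to 1.07). With TMM scaling the ratios to sham were 0.95 and 0.86 on the log2 scale and no longer past 2-fold. Kcnk2 (TREK1, opened by stretch) had 6.08, 10.5 and 9.64 CPM in AKBA, model and sham. Kcnk5 (TASK2) had 15.0, 21.9 and 16.7 CPM, Kcnk3 (TASK1) 4.96, 5.47 and 7.87 CPM, and Kcnk6 (TWIK2) 6.94, 7.22 and 7.27 CPM. None of these 4 reached 2-fold, and Kcnk6 was the most even.

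Of the channels opened by calcium, Kcnn4 (KCa3.1), a channel of macrophages, lymphocytes and red cells, had 8.95 CPM in AKBA, 2.90 in model and 3.10 in sham. It was 3.08-fold higher in AKBA than in model (2.68 to 3.56), while model and sham did not differ beyond counting error (0.937, 0.782 to 1.12). The 12 macrophage markers summed to 3391, 1796 and 2818 CPM in AKBA, model and sham and split by direction. Between AKBA and model, 4 were past 2-fold upward, beside 2.69% of all genes, and 1 downward, beside 1.37%. The other 7 markers were below model by less in AKBA. Kcnn3 (SK3) ran the other way, at 11.9, 17.5 and 23.5 CPM in AKBA, model and sham, just short of 2-fold for AKBA against sham on the log2 scale (-0.92) and past it with TMM scaling. Kcnma1, the pore of the BK channel, had 7.33, 3.87 and 5.11 CPM and its smooth muscle subunit gene Kcnmb1 7.62, 5.76 and 6.24 CPM, neither past 2-fold. Kcnmb4, the BK subunit typical of neurons, had 7.48 CPM in AKBA, 11.8 in model and 4.53 in sham, 2.60-fold higher in model than in sham (2.2995 to 2.95). Kcnma1 and Kcnmb1 thus shared the order AKBA, sham, model, while Kcnmb4 had the order model, AKBA, sham. Kcnt2, opened by sodium, had 4.37, 9.25 and 7.66 CPM in AKBA, model and sham. For AKBA against model it was short of 2-fold on the log2 scale (-0.93), with a CPM ratio of 0.473 (0.418 to 0.534).

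Of the 49 members below the filter, 4 (Kcne1, Kcnh6, Kcnk18 and Kcns2) had 0 counts in each library. The 95% Poisson upper limit of a count of 0 is 0.041 CPM in AKBA, 0.0412 in model and 0.0497 in sham. Another 14 members were at 0 in 1 or more but not all libraries. The 13 members past the filter and not named by the rule had means of 1.08 to 4.46 CPM, and their log2 ratios lay between -0.90 and 0.91 for model against sham, -0.67 and 0.90 for AKBA against model and -0.46 and 0.998 for AKBA against sham.

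The split of reads between transcripts of a gene differed more than the gene totals for some members. Kcnt2 had 0 reads in AKBA, 787 in model and 547 in sham on one transcript, and 360, 12 and 8 on another. Scn3a had 604 reads in model on a transcript with 0 in AKBA and sham. How the counting shared reads among overlapping transcripts is not stated in any source read, so these splits are read as assignments and not as isoform switches.

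Genes whose products work with the channels were set beside them. Of 17 sodium channel partners, all past the filter, 4 were at least 2-fold higher in model than in sham, beside 4.52% of all genes. Between AKBA and model 0 were at least 2-fold apart, beside 4.05% of all genes. Among the 4 higher in model than in sham were Nfasc (115 CPM in AKBA, 189 in model and 29.0 in sham) and Gldn (154, 138 and 56.04 CPM), which build the node of Ranvier, and Sptbn4 (3.05, 3.46 and 1.09 CPM), its spectrin. Ank3, which anchors sodium channels there, had 125, 141 and 76.0 CPM. Nfasc and Gldn kept this with TMM scaling, while Sptbn4 (0.96) then lay just under 2-fold on the log2 scale. Scn8a, the node's own channel gene, had lower levels in both crushed nerves than in sham. Of 21 potassium channel partners 15 passed the filter. Lgi4, a Schwann cell factor needed for myelination, was higher in model than in sham, at 170 CPM in AKBA, 186 in model and 88.1 in sham. Dlg2, a scaffold of Kv1 channels, was lower in model than in sham, at 10.1 CPM in AKBA, 13.1 in model and 28.2 in sham. Adam23, a receptor of LGI proteins, was lower in AKBA than in model beside Amigo1, at 48.4, 98.4 and 88.8 CPM in AKBA, model and sham. With TMM scaling Lgi4 (0.86) and Adam23 (-0.96) were no longer past 2-fold on the log2 scale.

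Of 17 pump and leak genes 14 passed the filter. Of the 14, 2 were at least 2-fold higher in AKBA than in model, beside 2.69% of all genes. Against sham, 4 were at least 2-fold higher in AKBA, beside 5.83%. Among the 2 was Atp1b1, a sodium pump beta subunit gene, at 81.2 CPM in AKBA, 13.3 in model and 35.5 in sham. Atp1b1 was also lower in model than in sham, at -1.35 on the log2 scale and -1.56 with TMM scaling. Hcn4, a pacemaker channel gene, was higher in model than in sham, at 29.2 CPM in AKBA, 30.6 in model and 14.0 in sham, and under 2-fold with TMM scaling (0.87 on the log2 scale). Nalcn, the sodium leak channel gene, stood at 27.5, 37.3 and 35.1 CPM.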

How the data were processed

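Whole numbers, counts per gene and per transcript with no normalization, were deposited by the authors for 3 libraries of rat sciatic nerve, 1 per group. The model column carried 2 extra text characters after each count, which were removed before use. Ribosomal RNA was depleted and cDNA was random-primed, per the labels' protocols. HISAT2, StringTie, limma, DESeq2, bcl2fastq 2.0 and the mouse build mm10 are listed, without roles, per the submitters' processing notes, whereas the rows carry rat identifiers. The counter, strand setting and treatment of reads matching several genes are not stated in any source read, so overlapping genes and near-identical copies are uncertain. Columns were assigned from the series' own key.

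CPM, log2 ratios with a pseudocount of 1 CPM and a filter at a mean of 1 CPM were computed here (Python 3.11.15, NumPy 2.4.6, SciPy 1.17.1). Depth was 90071899, 89505656 and 74184217 counts in AKBA, model and sham. Counting intervals were exact Clopper-Pearson for ratios and exact Poisson for levels, at 95%. They treat reads as independent, which PCR copies are not. No p-value was computed. Calls were tested on simulated counts that held counting error only, so that step says nothing of variation between animals. TMM factors came from edgeR 4.0.16 and size factors from DESeq2 1.42.0, as alternatives.

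Values are given in full for members past the filter with a mean of at least 5 CPM, with a 2-fold difference in any comparison, or with the largest ratio of their subfamily. A member with 0 counts in a library and more than 3 in another could also be named by its counts, as were Kcna7, Kcnd2 and Kcnq3. Outside these rules, Scn3b, Kcnip2, Kcnip3, Kcnj12, Kcnc4, Kcnh1, Kcna3, Kcna4, Scn1a, Scn10a and Scn11a were named after their values were seen. So were the partner genes Abcc9, Ank3, Dpp6 and Nalcn. The members and lists were chosen with earlier results of these data known. All 105 members had a current symbol in the RefSeq table of GRCr8, used for names, neighbours and transcript placement (102 members, 68 of them with sums equal to the gene count). Some members and listed genes are counted in the totals and not reported here one by one. The lncRNA tables were not used.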

Additional observations from a re-analysis of the deposited data

How the results depend on the processing

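Of 72 recomputed counts and medians under 8 alternatives, 60 stayed close to the reported value, counts within 1.5 times and medians within their 95% binomial interval, and 12 did not. For model against sham, members at least 2-fold lower numbered 3 with TMM scaling, 3 with DESeq2 size factors, 3 at a pseudocount of 0.1 CPM, 1 without ribosomal RNA rows in the total and 1 with sums of transcripts, against 0 as reported. The shares of all genes lower there were 2.03%, 1.96%, 2.04%, 1.68% and 2.66% under these 5 settings in turn. The median of members there was 0.017 with TMM scaling, 0.025 with DESeq2 size factors, 0.071 without ribosomal RNA rows and 0.055 with no level filter, against 0.15. The 2 scalings also took the median of all genes near 0, so relative to all genes the members' median was 0.03 in both. With a filter at 5 CPM, which kept 31 members, 0 members were higher in AKBA than in model, against 1.74% of all genes. All 6 members higher there at the reported filter had means under 5 CPM, from 1.89 (Kcne2) to 4.98 (Kcnn4). For AKBA against sham, 5 were higher and 3 lower at that filter (16.1% and 9.68%, against 5.17% and 2.0% of all genes). Among the recomputed ratios of the single members reported, 833 stayed within their counting interval and 124 did not, and none of the ratios past 2-fold changed sign. The settings with no level filter and with a filter at 5 CPM leave a single ratio unchanged. Their part of the 833 was therefore fixed in advance and says nothing of stability. Depth limits members with few counts, whose intervals are wide, and no interval holds the variation from animal to animal. No paired analysis was possible because each group had 1 library.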
